A study of Homo sapiens with 12 samples.

Results

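The genes described here encode the cell-surface death receptors, their decoys, the initiator caspases that the receptors recruit, and the regulators that stand between them. They were chosen by symbol, as FAS, TNFRSF10A, TNFRSF10B, TNFRSF10C, TNFRSF10D, EDA2R, PIDD1, CASP8, CASP10 and CFLAR, from a table of deposited RNA-seq gene counts, by a rule on names alone, although the set was drawn up with earlier results of these data known. All 10 were found, each under 1 Ensembl identifier, among the 36486 symbols and unnamed identifiers that the table holds after rows of the same symbol were summed. The study looked for compounds that restore activity to mutant p53, and compared 5 groups in 12 libraries. TOV-112D, an ovarian cancer cell line with endogenous p53-R175H, was treated for 3 h with the vehicle DMSO (n = 2), with 10 µM UCI-1001 (n = 2) or with UCI-1014 (n = 2), an analog of UCI-1001 whose dose is not given in the sources used here. Saos-2, an osteosarcoma cell line without functional p53, was sequenced as p53-null cells (n = 3) and as cells expressing p53-WT from a lentiviral, doxycycline-inducible construct (n = 3), and the labels give 16 h of induction for both groups. The sources used here do not say whether the p53-null cells received doxycycline, so an effect of p53-WT and one of doxycycline cannot be told apart if they did not. The paper describes the p53-null cells as the parental line. Effects of p53-WT, of the lentiviral construct and of making the derived line therefore cannot be told apart either. Both lines are single established lines, and the sources do not say whether the libraries of a group came from separate cultures, so that p-values measure the spread between libraries, which may be technical.

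Death receptors are members of the tumor necrosis factor receptor family with a death domain in their cytoplasmic tail. When FAS binds FAS ligand, or TNFRSF10A (DR4) or TNFRSF10B (DR5) binds TRAIL, the tail recruits the adaptor FADD, which gathers caspase-8 or caspase-10 so that these initiator caspases activate each other and then the executioner caspases. CFLAR (c-FLIP) resembles caspase-8 but lacks its protease activity, and it competes for the same platform. TNFRSF10C and TNFRSF10D also bind TRAIL but lack a complete death domain and are called decoy receptors. PIDD1 is the scaffold of the PIDDosome, a complex that activates caspase-2, and EDA2R is the receptor for ectodysplasin-A2. Several of these genes, among them FAS, TNFRSF10B and PIDD1, are known targets of p53.

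The TOV-112D libraries held 17762027 to 20717898 counts each and the Saos-2 libraries 19593655 to 24629558. Values below are in CPM, the count relative to the library size scaled by edgeR's TMM factors, or in TPM, a transcript abundance that also corrects for transcript length and is used wherever genes are set against each other. CDKN1A, the p53 target that encodes the cell cycle inhibitor p21, was called higher with UCI-1001 (log2 fold change 1.65), UCI-1014 (3.54) and p53-WT (7.01). MDM2, whose product degrades p53, was called higher with p53-WT (4.44) and not with UCI-1001 (0.00, adjusted p = 0.968, edgeR) or UCI-1014 (0.05, adjusted p = 0.350, edgeR). Replicate 1 of each Saos-2 group stood apart from replicates 2 and 3, since the chi-square between their gene counts, divided by its degrees of freedom, was 23.0 to 38.4 against 3.09 to 3.79 between the other replicates (1 where only sampling noise separates libraries), so the Saos-2 counts are also given without these libraries. Of 7 osteoblast markers, 2 averaged at least 1 TPM in Saos-2 (SPP1 at 15.4 to 38.1 and RUNX2 at 1.06 to 3.58), while SP7 and IBSP were under 0.1 TPM, and the keratins KRT8 and KRT18 were at 170.4 to 585.2 TPM. In TOV-112D, 1 of 4 ovarian or Müllerian markers (WT1 at 0.727 to 1.96 TPM) and 1 of 5 epithelial markers (EPCAM at 2.12 to 3.31 TPM) averaged at least 1 TPM, while PAX8, MUC16, SOX17, KRT18 and KRT19 were under 0.1 TPM. Markers of the other lineage were also present: 3 of 7 osteoblast markers averaged at least 1 TPM in TOV-112D, with COL1A1 at 22.2 to 27.97 TPM against 0.136 to 1.61 in Saos-2, and 2 of 4 ovarian or Müllerian markers did in Saos-2, with PAX8 at 1.6 to 4.64 and WT1 at 1.96 to 8.91 TPM. The lists therefore do not tell the lines apart by lineage.

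**Figure D1:**
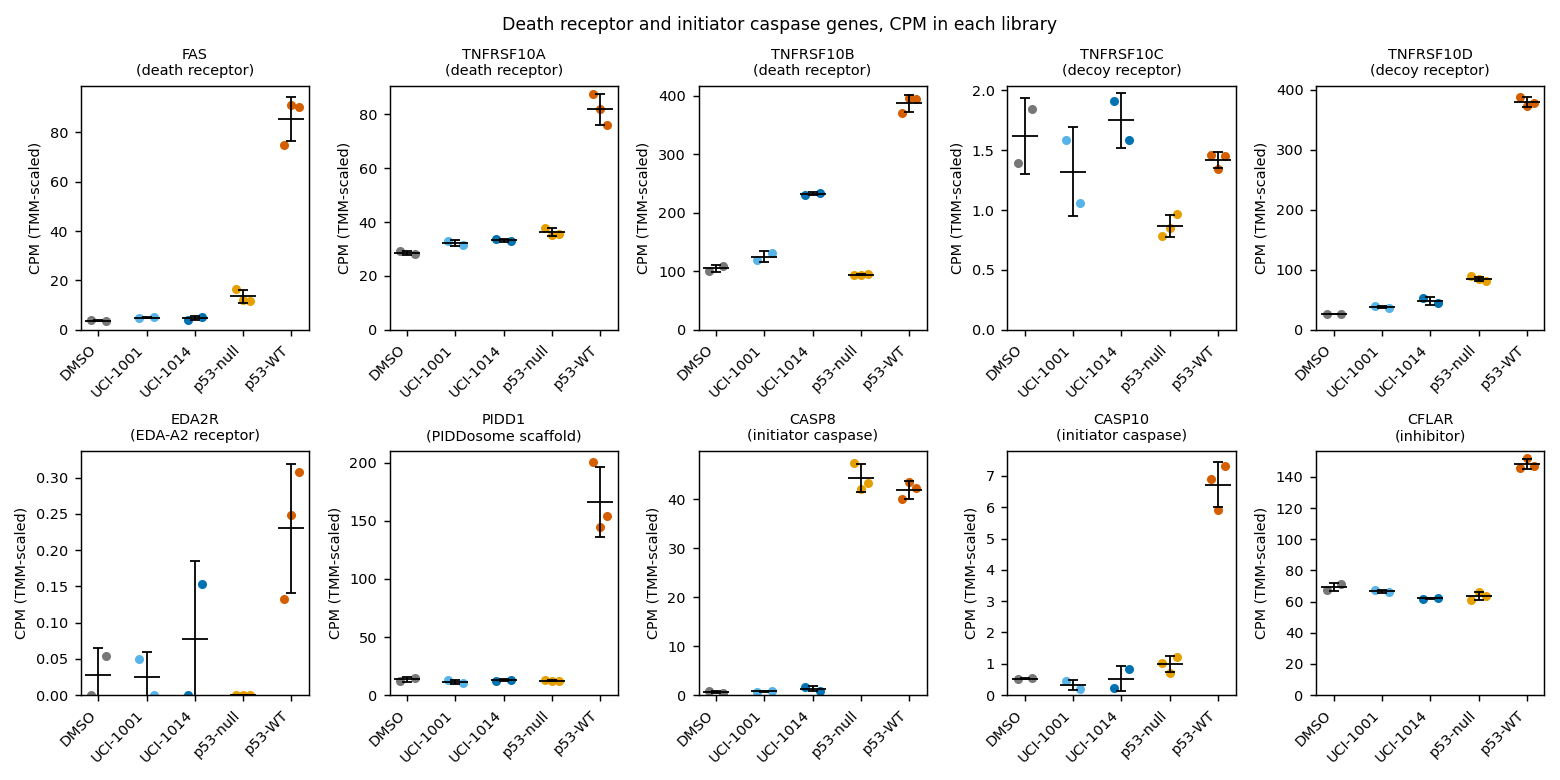
CPM (vertical axis, linear and from 0 in every panel, with its own scale) of the 10 genes in each library, by group on the horizontal axis. Points are libraries, the horizontal mark is the group mean and the bar its SD. FAS, TNFRSF10A, TNFRSF10B, TNFRSF10D, PIDD1, CASP10 and CFLAR lie higher in all 3 p53-WT libraries than in any other library, whereas CASP8 lies at the same level in p53-null and p53-WT and near 0 in TOV-112D.

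The first comparison asked which of these genes differed when Saos-2 cells expressed p53-WT. Of the 9 genes that passed the filter on low counts, 8 were called, all higher with p53-WT, at an adjusted p under 0.05 (edgeR's quasi-likelihood test over 14275 features). The background was high in this comparison, since 66.5% of all features tested were called and 33.5% were called higher. The median log2 fold change over the 9 genes was 2.04, beside -0.01 over all features. PIDD1 had the largest difference of the 9, CASP8 was the gene that was not called, and EDA2R was too low to test. The libraries of the groups did not overlap for 8 of the 9, beside 70.7% of all features. Without replicate 1 of both groups, an alternative chosen after seeing the data, 7 of the 9 were called (77.8%), all higher, where 74.2% of all features were called and 37.5% were called higher, so that the share called lay near the background. The gene lost was TNFRSF10C.

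Among the death receptors, FAS stood at 16.7, 12.3 and 11.7 CPM in the p53-null libraries and at 75.1, 91.1 and 90.1 CPM in the p53-WT libraries. The groups did not overlap, and the log2 fold change was 2.65 (standard error 0.16, adjusted p = 6.93e-08, edgeR), or 6.29-fold. Transcripts with no annotated protein held 6.56% to 19.7% of the FAS estimated count in p53-null and 9.73% to 40.5% in p53-WT. FAS shares exon positions with STAMBPL1 on its own strand and ACTA2 on the other, so some reads could be counted for either gene. The same holds for TNFRSF10B with RHOBTB2, TNFRSF10A with TNFRSF10A-AS1 and TNFRSF10A-DT, and CFLAR with CFLAR-AS1 and IMPDH1P10, all on the opposite strand, and for TNFRSF10C, CASP8 and CFLAR with unnamed genes on their own strand. The exons of TNFRSF10D, CASP10 and EDA2R overlap no other annotated gene. TNFRSF10A stood at 37.8, 35.1 and 35.7 CPM in p53-null and at 87.7, 81.8 and 76.0 CPM in p53-WT, a log2 fold change of 1.18 (standard error 0.11, adjusted p = 2.13e-06, edgeR). This was the smallest difference among FAS, TNFRSF10A and TNFRSF10B. TNFRSF10B stood at 93.0, 93.8 and 95.1 CPM in p53-null and at 370.7, 396.7 and 394.3 CPM in p53-WT. Its p53-null libraries lay close together, and the log2 fold change was 2.04 (standard error 0.10, adjusted p = 1.52e-08, edgeR). Both TRAIL receptors with a death domain were therefore higher, TNFRSF10B by 4.12-fold and TNFRSF10A by 2.26-fold.

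A promoter window of FAS is shown because it holds a full p53 site, and no window of PIDD1, EDA2R, CASP8 or CFLAR does. The windows of TNFRSF10A, TNFRSF10B, TNFRSF10C, TNFRSF10D and CASP10 are not reported here, so FAS is not singled out among all 10 genes. Windows from 250 bases before to 50 bases after each annotated start were taken from RefSeq (GRCh38.p14) and searched on both strands for the p53 consensus decamer and for the full site, a pair of adjacent decamers with at most 2 mismatches in 20 bases. Of all 35116 windows, 6.63% hold an exact decamer and 0.649% a full site. FAS lies on chromosome 10 from 88953813 to 89029605 on the plus strand (GENCODE release 44, GRCh38), and 1 of its 3 windows, chr10:88991181-88991480, holds a full site with 2 mismatches at 88991309 to 88991328. That site begins 122 bases before the annotated start of its own window, and it is printed in capitals. The other FAS windows, chr10:88990548-88990847 and chr10:88990664-88990963, end before the site, so it lies downstream of their annotated starts.
FAS: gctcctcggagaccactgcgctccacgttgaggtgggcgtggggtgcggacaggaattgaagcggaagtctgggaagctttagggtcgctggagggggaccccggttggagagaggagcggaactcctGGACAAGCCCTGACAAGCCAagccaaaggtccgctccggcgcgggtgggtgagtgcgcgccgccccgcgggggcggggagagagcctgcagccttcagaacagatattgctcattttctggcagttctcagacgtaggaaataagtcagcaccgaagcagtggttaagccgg
The match is a description of these letters, and no binding was measured in these data.

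The decoy receptors were also higher with p53-WT, and they differed from each other in level. TNFRSF10D stood at 88.9, 84.9 and 81.9 CPM in p53-null and at 388.6, 373.7 and 377.2 CPM in p53-WT, a log2 fold change of 2.16 (standard error 0.10, adjusted p = 1.12e-08, edgeR). In TPM it stood at 34.9 ± 2.01 (SD, n = 3) in p53-null and 134.3 ± 13.3 (SD, n = 3) in p53-WT, where it overlapped TNFRSF10B at 123.7 to 150.2 TPM. TNFRSF10C was held by 17, 18 and 22 counts in p53-null and by 33, 27 and 33 counts in p53-WT libraries. Its log2 fold change of 0.71 (standard error 0.25) was called at an adjusted p of 0.0269 (edgeR), but the call was lost with DESeq2 (adjusted p = 0.160), without the low-count filter (0.0611), with limma on TPM (0.0513) and when any replicate other than p53-null replicate 3 was left out (0.0524 to 0.0799). The direction was the same in all of these. The 4 TNFRSF10 genes lie together on chromosome 8, and kallisto divides reads that fit several transcripts. The single TNFRSF10D transcript had an estimated count that was whole to the first decimal in all 12 libraries, so that no division of its reads was visible.

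**Figure D2:**
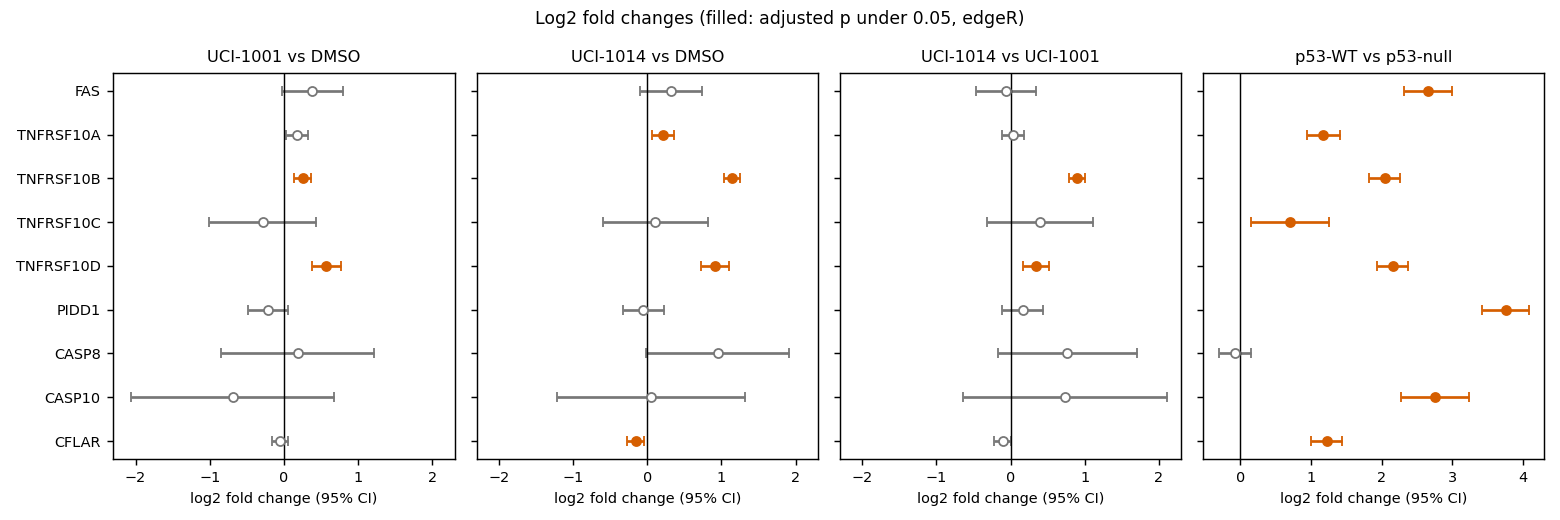
Log2 fold change (horizontal axis) of the 9 genes tested, with 95% confidence intervals as bars, in the 4 comparisons; the p53-WT panel has its own axis range. Filled points were called at an adjusted p under 0.05 (edgeR) and open points were not: 2 genes were called with UCI-1001, 4 with UCI-1014, 2 between the compounds and 8 with p53-WT.

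The ratio of the decoy receptors to the TRAIL death receptors, taken as summed TPM of TNFRSF10C and TNFRSF10D over that of TNFRSF10A and TNFRSF10B, was 0.566, 0.544 and 0.529 in the p53-null libraries and 0.695, 0.715 and 0.732 in the p53-WT libraries. The ratio was thus higher in every p53-WT library, with 3 libraries in each group and no test. TNFRSF10B over TNFRSF10A was 1.47, 1.69 and 1.65 in p53-null and 2.54, 3.00 and 3.20 in p53-WT, again without overlap. Both ratios, of TNFRSF10B to TNFRSF10A and of decoy to death receptor mRNA, were therefore higher in p53-WT than in p53-null libraries. Decoy mRNA remained below death receptor mRNA in both groups.

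**Figure D3:**
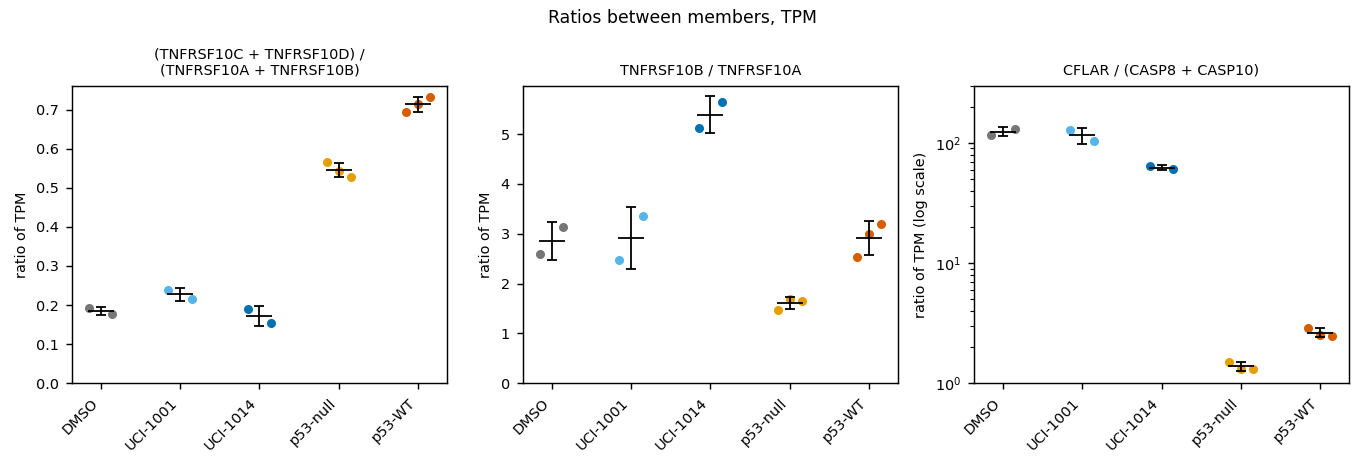
Ratios of TPM in each library (points), with the group mean (horizontal mark) and SD (bar); the left and middle axes are linear and start at 0, and the right axis is logarithmic. CFLAR over CASP8 + CASP10 lies between 60.6 and 132 in TOV-112D and between 1.31 and 2.89 in Saos-2, and TNFRSF10B over TNFRSF10A is highest in the UCI-1014 libraries.

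PIDD1 had the largest difference with p53-WT among the 9 genes tested. It stood at 13.0, 12.1 and 11.9 CPM in p53-null and at 200.5, 144.8 and 153.8 CPM in p53-WT. The p53-WT libraries varied more than the p53-null libraries, with replicate 1 highest, and the log2 fold change was 3.76 (standard error 0.15, adjusted p = 4.26e-09, edgeR), or 13.5-fold. Transcripts with no annotated protein held 42.7% to 66.2% of the PIDD1 estimated count in p53-null and 52.0% to 59.8% in p53-WT. The transcript for 910 amino acids was also higher with p53-WT, by a ratio of means of 12.2, a description with no test. PIDD1 lies on chromosome 11 from 799179 to 809753 on the minus strand, and its exons overlap those of PANO1 on the opposite strand, so that without knowledge of the library's strand the reads of the 2 genes cannot be told apart there. CASP2, the caspase that the PIDDosome activates, moved the other way, from 53.3 ± 4.47 CPM in p53-null to 14.97 ± 0.82 CPM in p53-WT (n = 3 each), and its log2 fold change was -1.83 (standard error 0.11, adjusted p = 1.11e-07, edgeR). The PIDD1 promoter window, chr11:805182-805481 on the minus strand, is printed as the counterpart to that of FAS, since PIDD1 had the larger difference and its window holds neither an exact decamer nor a full site. It has 42 CpG dinucleotides, beside a median of 14 and an upper quartile of 28 over all windows.
PIDD1: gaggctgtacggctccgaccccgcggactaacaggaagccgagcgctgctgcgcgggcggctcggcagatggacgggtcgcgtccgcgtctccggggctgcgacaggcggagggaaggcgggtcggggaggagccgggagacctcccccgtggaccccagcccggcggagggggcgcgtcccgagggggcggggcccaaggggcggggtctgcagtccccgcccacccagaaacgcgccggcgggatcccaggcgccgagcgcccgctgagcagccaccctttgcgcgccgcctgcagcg
The absence of a match says only that these letters are not in this window.

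EDA2R, on chromosome X from 66595637 to 66639298, was barely detected. The gene table listed 0 counts in all 3 p53-null libraries and 3, 5 and 7 counts in the p53-WT libraries. The transcript estimates differed slightly, since EDA2R-202 held 1.0 estimated count in p53-null replicate 3 and 4.0, 5.9 and 7.0 in the p53-WT libraries. Set against a floor of 3 counts over the p53-null group, the 15 counts in p53-WT gave a ratio of 5.02. This ratio takes the 15 counts as exact, so it allows for counting error in the p53-null group only and is not a lower bound. Where low counts were not filtered out, EDA2R passed the threshold with p53-WT (adjusted p = 0.00331 with edgeR and 0.015 with DESeq2). In the 6 TOV-112D libraries EDA2R had between 0 and 3 counts, and no difference was detectable at this depth.

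The initiator caspase genes and CFLAR are neighbours on chromosome 2, all on the plus strand. CFLAR spans 201116154 to 201176687, CASP10 spans 201182872 to 201229428 and CASP8 spans 201233443 to 201361836, with 6185 bases between CFLAR and CASP10 and 4015 bases between CASP10 and CASP8. In Saos-2 cells these neighbours differed in response. CASP8 stood at 47.5, 42.0 and 43.2 CPM in p53-null and at 39.9, 43.5 and 42.2 CPM in p53-WT. These ranges overlapped, and the log2 fold change was -0.08 (95% confidence interval -0.31 to 0.15, adjusted p = 0.518, edgeR). CASP10 stood at 1.01, 0.711 and 1.23 CPM in p53-null and at 6.91, 5.92 and 7.31 CPM in p53-WT, from 15 to 28 counts against 119 to 166 counts. Its log2 fold change was 2.76 (standard error 0.22, adjusted p = 7.46e-07, edgeR), or 6.77-fold, and 1.22 with limma on log2(TPM + 1), a scale that shrinks the change of low genes. CASP10 nevertheless remained the lower of the 2 caspase genes, at 2.28 ± 0.40 TPM against 26.8 ± 2.60 TPM for CASP8 in p53-WT (SD, n = 3). CFLAR, which inhibits both caspases at the receptor, stood at 60.8, 66.1 and 63.5 CPM in p53-null and at 145.6, 152.0 and 146.9 CPM in p53-WT, a log2 fold change of 1.22 (standard error 0.10, adjusted p = 8.54e-07, edgeR). CFLAR over the sum of CASP8 and CASP10 in TPM was 1.38 ± 0.11 in p53-null and 2.63 ± 0.23 in p53-WT (SD, n = 3), without overlap.

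The CASP8 windows are described because CASP8 was the tested gene that was not called. Of its 3 promoter windows, the one at chr2:201257785-201258084 on the plus strand holds 1 exact decamer, printed in capitals, and none holds a full site.
CASP8: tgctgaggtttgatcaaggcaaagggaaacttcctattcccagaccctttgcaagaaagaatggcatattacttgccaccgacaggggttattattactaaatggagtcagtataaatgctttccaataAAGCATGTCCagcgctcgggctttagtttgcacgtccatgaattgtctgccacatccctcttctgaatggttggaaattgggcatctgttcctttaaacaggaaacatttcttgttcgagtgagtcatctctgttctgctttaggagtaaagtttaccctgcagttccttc
The 4 windows of CFLAR and the 2 of EDA2R hold no decamer and no full site.

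CFLAR is made as a long and a short protein by alternative splicing, so its transcripts were grouped by the length of the protein that GENCODE release 44 annotates. Transcripts for the long form of 480 amino acids held 28.0, 37.1 and 33.3 estimated CPM (estimated counts scaled as the CPM) in p53-null and 79.3, 96.3 and 90.8 in p53-WT. All 3 p53-WT libraries were higher, and the ratio of the means was 2.71. Transcripts for a protein of 221 amino acids, the length of the short form, held 11.7, 8.81 and 9.97 estimated CPM in p53-null and 15.2, 8.85 and 9.16 in p53-WT. These ranges overlapped, and the ratio of the means was 1.09. As a share of the CFLAR estimated count, the 221 amino acid transcripts held 13.3% to 19.3% in p53-null and 5.83% to 10.4% in p53-WT, without overlap. These values are descriptions with no test, since kallisto infers the split between overlapping transcripts and the files hold no estimate of that error.

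**Figure D4:**
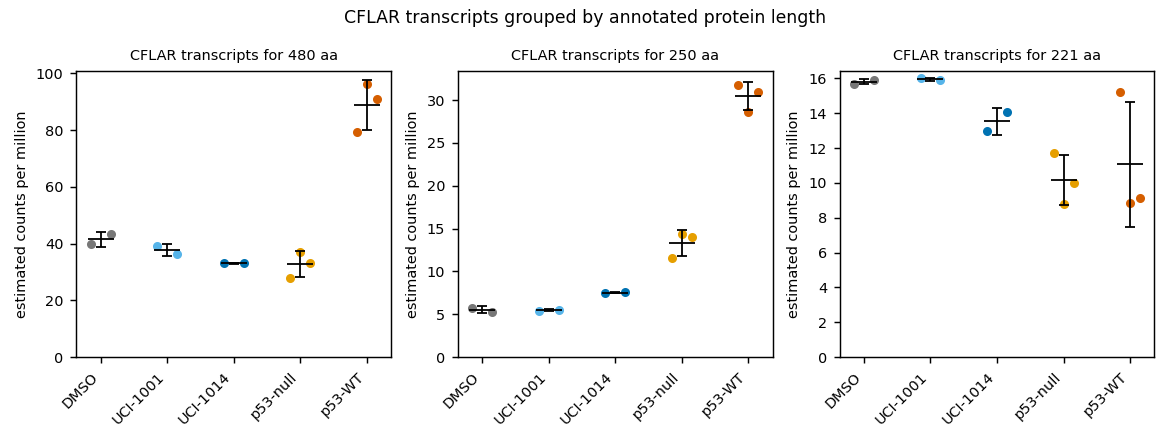
Estimated CPM (vertical axis, linear from 0) of CFLAR transcripts grouped by annotated protein length, in each library (points), with the group mean (horizontal mark) and SD (bar). The groups for 480 and 250 amino acids lie higher in every p53-WT library than in every p53-null library, and the group for 221 amino acids overlaps between p53-null and p53-WT.

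The second comparison asked what UCI-1001 did to the same genes in TOV-112D cells. Of 9 genes tested, TNFRSF10B and TNFRSF10D were called, both higher, where 15.7% of all 14177 features tested were called, 9.39% higher and 6.36% lower. The median log2 fold change over the 9 genes was 0.17, beside 0.00 over all features. TNFRSF10D stood at 25.8 and 25.6 CPM in the DMSO libraries and at 39.6 and 36.9 CPM in the UCI-1001 libraries. The groups did not overlap, and the log2 fold change was 0.57 (standard error 0.09, adjusted p = 0.000514, edgeR), or 1.49-fold. TNFRSF10B stood at 100.9 and 109.7 CPM with DMSO and at 119.1 and 131.3 CPM with UCI-1001, and the log2 fold change was 0.25 (standard error 0.05, adjusted p = 0.00537, edgeR). The TNFRSF10B call was lost without DMSO replicate 1 (0.19, adjusted p = 0.143, edgeR) or UCI-1001 replicate 2 (0.17, adjusted p = 0.0856, edgeR), and in one fit of all 12 libraries (adjusted p = 0.339, edgeR). With limma on TPM neither TNFRSF10D (0.54, adjusted p = 0.113) nor TNFRSF10B (0.20, adjusted p = 0.260) was called.

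The other genes tested were not called with UCI-1001. FAS stood at 4.02 and 3.52 CPM with DMSO and at 4.71 and 5.13 CPM with UCI-1001, without overlap, and its log2 fold change was 0.38 (95% confidence interval -0.03 to 0.80, adjusted p = 0.215, edgeR). TNFRSF10A stood at 29.2 and 28.2 CPM with DMSO and at 33.1 and 31.5 CPM with UCI-1001, and the log2 fold change was 0.17 (0.02 to 0.32, adjusted p = 0.118, edgeR). Of the 9 genes, 5 had groups that did not overlap, beside 57.4% of all features. PIDD1 had a log2 fold change of -0.21 (-0.49 to 0.06) and CFLAR one of -0.05 (-0.17 to 0.06). TNFRSF10C, CASP8 and CASP10 had wide intervals, since none had more than 34 counts in any DMSO or UCI-1001 library.

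The third comparison asked the same of UCI-1014. Here 4 of 9 genes were called, 44.4% of them, where 47.1% of all features tested were called, so that the share called lay near the background. TNFRSF10B, TNFRSF10D and TNFRSF10A were called higher and CFLAR lower, beside 23.7% of features called higher and 23.4% lower, and the median log2 fold change over the 9 genes was 0.21, beside -0.02 over all features. The groups did not overlap for 6 of the 9, beside 73.4% of all features. TNFRSF10B stood at 230.5 and 233.9 CPM with UCI-1014, against 100.9 and 109.7 CPM with DMSO. Both UCI-1014 libraries were above every other TOV-112D library, and the log2 fold change was 1.14 (standard error 0.05, adjusted p = 2.87e-10, edgeR), or 2.21-fold. Its transcripts for proteins of 440 and 411 amino acids were both higher, from 80.9 and 84.6 to 184 and 185 estimated CPM and from 13.3 and 17.7 to 34.3 and 35.8 estimated CPM. TNFRSF10D stood at 53.3 and 44.1 CPM with UCI-1014, a log2 fold change against DMSO of 0.92 (standard error 0.09, adjusted p = 8.68e-07, edgeR). TNFRSF10A stood at 33.6 and 32.8 CPM with UCI-1014, a log2 fold change of 0.21 (standard error 0.07, adjusted p = 0.0238, edgeR). The TNFRSF10A call was lost with DESeq2 (adjusted p = 0.148), without the low-count filter (0.0553) and without DMSO replicate 1 (0.0545), DMSO replicate 2 (0.136) or UCI-1014 replicate 1 (0.0746), in one fit of all 12 libraries (0.304) and with limma on TPM (0.362), and it was kept in 5 of 12 alternatives.

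CFLAR stood at 67.3 and 71.1 CPM with DMSO and at 61.8 and 62.3 CPM with UCI-1014, a log2 fold change of -0.16 (standard error 0.05, adjusted p = 0.0274, edgeR). This small difference depended on the unit. In TPM, CFLAR stood at 57.4 and 59.4 with DMSO and at 64.9 and 66.7 with UCI-1014, so that the direction reversed (log2 difference 0.17, adjusted p = 0.0794, limma). The call was also lost with DESeq2 (adjusted p = 0.166), in one fit of all 12 libraries (0.0855, edgeR) and when any library of either group was left out (0.0591 to 0.224, edgeR), and it was kept in 5 of 12 alternatives. Transcripts for the 480 amino acid form held 39.7 and 43.3 estimated CPM with DMSO and 33.1 and 33.0 with UCI-1014, whereas those for a 250 amino acid protein held 5.79 and 5.21 with DMSO and 7.51 and 7.56 with UCI-1014.

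FAS, TNFRSF10C, PIDD1, CASP8 and CASP10 were not called with UCI-1014. FAS stood at 4.12 and 5.27 CPM, a log2 fold change of 0.32 (95% confidence interval -0.10 to 0.74, adjusted p = 0.199, edgeR). PIDD1 stood at 12.5 and 13.4 CPM with UCI-1014 and at 11.96 and 14.9 CPM with DMSO, a log2 fold change of -0.05 (-0.32 to 0.22). In the transcript estimates of PIDD1, the transcript for a protein of 893 amino acids held 0% and 1.52% of the gene with DMSO and 39.2% and 24.4% with UCI-1014, a description with no test. PIDD1 had 207 to 276 counts per TOV-112D library, and its shares varied between replicates. The transcript for 910 amino acids held 61.0% in UCI-1001 replicate 1 and 37.7% in replicate 2. CASP8 had 16 and 9 counts with DMSO and 28 and 18 counts with UCI-1014, a log2 fold change of 0.95 (-0.01 to 1.91, adjusted p = 0.098, edgeR). It was called with limma on TPM (0.43, adjusted p = 0.0287), and its log2 fold change ran from 0.49 without UCI-1014 replicate 1 to 1.39 without DMSO replicate 1 (adjusted p = 0.0587 to 0.557 when one library was left out, edgeR).

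UCI-1014 and UCI-1001 form the single pair of compounds in these data, and they were compared directly after the same 3 h of treatment. Because the dose of UCI-1014 is not given in the sources used here, a difference in dose and a difference between the compounds cannot be told apart. Of 9 genes, TNFRSF10B and TNFRSF10D were called, both higher with UCI-1014, where 31.1% of all features were called and 17.1% were called higher, and 5 of the 9 had groups without overlap, beside 63.7% of features. TNFRSF10B differed by a log2 fold change of 0.89 (standard error 0.05, adjusted p = 1.11e-08, edgeR), or 1.86-fold. TNFRSF10D differed by 0.34 (standard error 0.08, adjusted p = 0.00579, edgeR), and this call was lost without UCI-1014 replicate 1 (0.22, adjusted p = 0.0624, edgeR), in one fit of all 12 libraries (adjusted p = 0.0884, edgeR) and with limma on TPM (adjusted p = 0.175). TNFRSF10A (0.04, 95% confidence interval -0.11 to 0.19), FAS (-0.06, -0.46 to 0.34), PIDD1 (0.16, -0.11 to 0.44) and CFLAR (-0.10, -0.22 to 0.01) were not called, and a difference within these intervals remains possible. The intervals of TNFRSF10C (-0.32 to 1.11), CASP8 (-0.17 to 1.70) and CASP10 (-0.63 to 2.11) were wider. The ratio of TNFRSF10B to TNFRSF10A in TPM was 2.59 and 3.13 with DMSO, 2.48 and 3.35 with UCI-1001, and 5.13 and 5.65 with UCI-1014. The ratio of decoy to TRAIL death receptors was 0.192 and 0.178 with DMSO, 0.239 and 0.215 with UCI-1001, and 0.191 and 0.155 with UCI-1014. It was thus above the DMSO range in both UCI-1001 libraries, whereas the UCI-1014 values overlapped it.

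The order of the genes by TPM differed between the lines. In DMSO-treated TOV-112D cells CFLAR (58.4 ± 1.38 TPM) and TNFRSF10B (54.3 ± 4.79) led and overlapped each other, followed without overlap by TNFRSF10A (19.02 ± 0.85), TNFRSF10D (11.9 ± 0.27), PIDD1 (7.91 ± 2.47), FAS (3.19 ± 0.52), TNFRSF10C (1.67 ± 0.29) and CASP8 (0.401 ± 0.070; SD, n = 2 throughout). CASP10 and EDA2R were lowest, below 0.15 TPM. CASP10 is understated in TPM, since none of the 10 counts it had in DMSO replicate 2 lies in a transcript that could be assigned to it, so these 2 genes were not ordered. In p53-null Saos-2 cells CFLAR (42.6 ± 2.98 TPM) overlapped TNFRSF10B (40.4 ± 4.22), which overlapped TNFRSF10D (34.9 ± 2.01), and CASP8 came next at 30.5 ± 0.71 TPM (SD, n = 3). With p53-WT, TNFRSF10B and TNFRSF10D led, CFLAR followed at 76.0 ± 2.01 TPM, PIDD1 came next at 67.6 ± 3.43 TPM, and FAS at 47.5 ± 3.02 TPM overlapped TNFRSF10A at 48.5 ± 1.78. The FAS level in TPM is understated, since the transcripts that could be assigned to genes hold 79.4% of its counts.

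CASP8 was the gene with the largest gap between the lines. It had between 9 and 28 counts in the TOV-112D libraries and between 873 and 1030 in the Saos-2 libraries. Its mean of 30.5 TPM in p53-null cells was 76.1 times the 0.401 TPM of DMSO-treated TOV-112D cells. With CASP10 at 4 to 16 counts per library, both initiator caspase genes of the receptor pathway were near the detection limit in TOV-112D, while CFLAR was not, and CFLAR over the sum of CASP8 and CASP10 was 117 and 132 with DMSO, 129 and 104 with UCI-1001 and 64.4 and 60.6 with UCI-1014. The denominator of this ratio in TOV-112D rests on few counts and lacks CASP10 counts in transcripts that could not be assigned. The 2 lines share no treatment group, so line and treatment cannot be told apart, and fewer cells with a transcript and less of it per cell cannot be told apart in bulk RNA.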

How the data were processed

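RNA was extracted from TOV-112D and Saos-2 cells and sequenced by a service provider, and 12 libraries were analysed. The authors used kallisto (v0.48.0) on GRCh38, per the labels, and made whole-number gene counts by summing the estimated counts of each gene's transcripts. These deposited gene counts are not normalized. The deposited files per library also hold estimated counts, TPM and effective lengths for 187626 transcripts, of which 163673 were assigned to genes with GENCODE release 44. The annotation release and the strand setting are not given in the sources used here.

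Each column of the gene table came within 1.5 counts of its own library's file for 91.2% to 91.7% of genes, against 26.4% to 36.7% for other files. Rows were summed by symbol, while 8043 identifiers without a symbol and 29 with a date in its place were kept as they were. Counts were tested with edgeR 4.0.16 in R 4.3.3 (TMM, filterByExpr, glmQLFit, glmQLFTest, Benjamini-Hochberg adjustment over all features tested, called under 0.05), with group as the only term and one fit per cell line, over 14177 features in TOV-112D and 14275 in Saos-2. The biological coefficient of variation was 3.59% and 12.3%. A count of 0 was set against a floor of 3 counts. TPM entered descriptions and one alternative, limma 3.58.1 on log2(TPM + 1). DESeq2 1.42.0 was another alternative. Fits were tested on simulated data, and Python 3.11.15 was used for the rest.

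Named genes were all 10 members, CDKN1A and MDM2 as controls, the 2 largest rises and 2 largest falls per comparison among called genes of a list of 28 pathway genes, and the symbol nearest in pattern to each member. Some genes that the rule names are not reported here. The members and lists were chosen with earlier results of these data known.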

Additional observations from a re-analysis of the deposited data

How the results depend on the processing

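With p53-WT, 7 or 8 genes were called under every alternative, where 40.7% to 74.2% of all features were called (8347 to 10681), and not the same genes: with DESeq2 and without the low-count filter EDA2R was called in place of TNFRSF10C. With the compounds the counts moved. Under limma on log2(TPM + 1), the genes called numbered 0 with UCI-1001 (3 at an unadjusted p under 0.05, and 2 called with edgeR or DESeq2) and 1 between the compounds, all features called numbered 194 (UCI-1001), 4014 (UCI-1014) and 1682 (between the compounds), and pathway genes called numbered 1, 9 and 4. In one fit of all 12 libraries, the genes called numbered 1, 2 and 1 with UCI-1001, with UCI-1014 and between the compounds. In the same order, all features called numbered 308 (1.9%), 3421 (21.7%) and 937 (5.9%). Pathway genes called numbered 1 with UCI-1001 and 3 between the compounds. With DESeq2, the genes called numbered 2 with UCI-1014, beside 20.6% of all features. All features called numbered 1149 (5.0%) with UCI-1001, against 2232 (15.7%) with edgeR, and 2636 (11.5%) between the compounds, against 4406 (31.1%). Pathway genes called with UCI-1001 numbered 3. Leaving out one library at a time gave 1 to 2 genes called with UCI-1001 (952 to 1843 features, with 952, 1020 and 1188 without DMSO replicate 1, DMSO replicate 2 and UCI-1001 replicate 2, and 3 to 5 pathway genes), 2 to 3 with UCI-1014 (5060 to 6033 features, 34.8% to 41.3%; 2 genes without either DMSO replicate or UCI-1014 replicate 1) and 1 to 2 between the compounds (1 without UCI-1014 replicate 1). CFLAR with UCI-1014 reversed under limma on TPM (0.17). The cause was not tested in any of these. Limma on TPM also moved the median of all features by -0.20 log2 with p53-WT, with 38.7% of its calls higher, where the count-based fits gave 50.2% to 53.3%. With UCI-1001, 88.7% of its calls and 83.1% of those in the fit of all libraries were higher, against 59.6%, and between the compounds 70.1% in the fit of all libraries, against 55.2%.

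Same-numbered libraries were not paired by the labels, and their deviations correlated by -0.154 to 0.037 in TOV-112D and by 0.06 to 0.175 in Saos-2. A replicate block gave 2, 4, 2 and 8 genes called with UCI-1001, with UCI-1014, between the compounds and with p53-WT. In the same order, it gave 1774 (12.5%), 6307 (44.5%), 3882 (27.4%) and 9814 (68.7%) features. Crossing the numbers between UCI-1001 and UCI-1014, chosen after seeing the data, gave 2 genes and 4979 features (35.1%). EDA2R, TNFRSF10C, and CASP8 and CASP10 in TOV-112D had few counts. Whether deeper sequencing would change their calls was not tested.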

Other observations

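The other genes of the pathway were taken from a list of 28 ligands, receptors, adaptors, caspases and inhibitors, of which 23 were tested in each line. The death ligand genes FASLG, TNFSF10 (TRAIL), TNF and LTA had 0 to 3 counts in every library and were not tested in either line. With p53-WT, 16 of the 23 were called, 10 higher and 6 lower, beside 66.5% of all features, and the median log2 fold change of the 23 was 0.26. NGFR, the low-affinity nerve growth factor receptor, which has a death domain, was at 0.411 ± 0.037 CPM in p53-null and 13.7 ± 1.5 CPM in p53-WT (SD, n = 3), a log2 fold change of 5.04 (standard error 0.20, adjusted p = 4.27e-09, edgeR), and 2.41 with limma on log2(TPM + 1). APAF1, the scaffold on which caspase-9 is activated, was at 23.4 ± 2.25 and 303.2 ± 42.5 CPM, a log2 fold change of 3.69 (standard error 0.14, adjusted p = 3.52e-09, edgeR). Besides CASP2, the largest fall was that of TRAF2, an adaptor of TNF receptors, with a log2 fold change of -1.53 (standard error 0.10, adjusted p = 1.92e-07, edgeR).

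With UCI-1014, 16 of the 23 were called, 14 higher and 2 lower, beside 47.1% of all features (median log2 fold change 0.39), and with UCI-1001 8 were called, 7 higher and 1 lower, beside 15.7% (median 0.17). These comparisons share their DMSO libraries. TNFAIP3 (A20), which removes ubiquitin chains in TNF receptor signaling, rose with UCI-1014 from 2.43 ± 0.065 to 16.8 ± 2.62 CPM (SD, n = 2), a log2 fold change of 2.78 (standard error 0.16, adjusted p = 3.60e-09, edgeR), and with UCI-1001 to 6.41 ± 0.036 CPM, a log2 fold change of 1.40 (standard error 0.18, adjusted p = 0.000107, edgeR). With limma on log2(TPM + 1) these were 1.60 and 0.79, and the call with UCI-1001 was lost (adjusted p = 0.181). BIRC3 (cIAP2), a ubiquitin ligase of the same complexes, rose with UCI-1014 by a log2 fold change of 2.26 (standard error 0.18, adjusted p = 1.37e-07, edgeR), and by 1.13 with limma. RIPK1, the kinase adaptor of TNF receptor complexes, fell by 0.42 on the log2 scale with UCI-1014 (adjusted p = 0.000694, edgeR). With UCI-1001 its log2 fold change was -0.29 (adjusted p = 0.0255, edgeR), a call kept in 6 of 12 alternatives and lost with DESeq2 (adjusted p = 0.215), limma (0.221), one fit of all libraries (0.131) and without DMSO replicate 1 (0.252), UCI-1001 replicate 1 (0.0798) or UCI-1001 replicate 2 (0.099). CASP2 fell by 0.29 with UCI-1014 (adjusted p = 0.00117, edgeR), a call lost with limma on TPM (-0.14, adjusted p = 0.181). Between the compounds, 10 of the 23 were called, 9 higher with UCI-1014 and 1 lower, beside 31.1% of all features (median 0.12). BIRC3 (1.75, adjusted p = 2.86e-06, edgeR) and TNFAIP3 (1.39, adjusted p = 2.70e-06, edgeR) differed most, although TNFAIP3 was not called with limma (0.81, adjusted p = 0.0881). CASP2 was the gene called lower (-0.17, adjusted p = 0.0414, edgeR), a call kept in 2 of 13 alternatives (adjusted p = 0.025 to 0.279) and lost without any one of the 4 libraries.

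For each of the 9 genes tested in both lines, the symbol whose pattern was most like it was found by Pearson's r of log2(CPM + 0.5), centred on the mean of each cell line, over the 12 libraries and among 11576 symbols. These were STX12 for FAS (r = 0.996), PRKAB1 for TNFRSF10A (0.995), NR4A1 for TNFRSF10B (0.993), SNAP25 for TNFRSF10C (0.906), SGMS1 for TNFRSF10D (0.997), DDB2 for PIDD1 (0.999), ANAPC10 for CASP8 (0.931), EPOR for CASP10 (0.987) and ADAM23 for CFLAR (0.998). Since the libraries fall into groups, these values mostly describe the differences between groups.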
